A study of Homo sapiens with 18 samples.

Results

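Nuclear genes for the mitochondrial respiratory chain were read out as 96 probe sets for 89 genes, out of 19158 probe sets (18404 genes) that carry exactly 1 gene symbol. Members were taken by a naming rule, set with earlier results of these data known. The rule asks for a single symbol starting with NDUFA, NDUFB, NDUFC, NDUFS, NDUFV, SDH (SDHA to SDHD), UQCR, COX4 to COX8 or ATP5. Subunits made up 82 probe sets for 76 genes, with 36 for complex I, 5 for complex II, 7 for complex III, 17 for complex IV and 17 for complex V. The same naming rule also took in 9 probe sets of assembly factors (NDUFAF1 to NDUFAF7 and COX7A2L) and 5 of genes or transcripts that are no subunit, among them the ATP synthase inhibitor ATP5IF1. SDHB and UQCRFS1, and the subunits encoded by mitochondrial DNA, were not analysed here.

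The respiratory chain passes electrons from NADH (complex I) and succinate (complex II) through ubiquinone, complex III and cytochrome c to oxygen at complex IV, and the proton gradient built on the way drives ATP synthesis at complex V. In most of the complexes catalytic core subunits are surrounded by supernumerary ones, while complex II has only catalytic subunits and membrane anchors. Dedicated assembly factors that are absent from the finished enzymes join the pieces. Transcription of the nuclear genes is classically linked to NRF1, the ETS factor GABP, YY1 and the estrogen-related receptors.

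Cells were MCF10A, an established, non-tumorigenic human mammary epithelial line, measured on 18 Affymetrix arrays in 6 groups of 3. A non-targeting hairpin (shNT) was carried by 4 groups, which were transfected with control cDNA (called control here), YAP/TAZ cDNA, ESR1 cDNA, or both. The remaining groups were depleted of LATS1 by the hairpin shLATS1B, or targeted at LATS1 together with LATS2 (shLATS1+2), and were transfected with control cDNA. Both LATS proteins are Hippo pathway kinases that restrain the co-activators YAP and TAZ, and ESR1 encodes estrogen receptor alpha. All groups shared lentiviral infection at a multiplicity of 5, puromycin at 1.5 µg/ml for 4 days, recovery for 7 days or more, lipid transfection, and 5 days in estrogen-containing medium. The cDNA transfection was transient. The labels do not state whether replicates were independent cultures. The p-values therefore measure no more than the spread between these samples, and the number of arrays limits the precision.

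The knockdown label was borne out for LATS1, whose log2 intensity was 8.86 ± 0.086 (SD, n = 3) in control, 7.66 ± 0.13 with shLATS1B and 7.76 ± 0.09 with shLATS1+2. LATS2 was at 7.82 ± 0.09 in the libraries labelled shLATS1+2 and at 7.73 ± 0.1 in control, and so showed no knockdown. YAP1 was at 10.84 ± 0.031 in control and 10.79 ± 0.029 with YAP/TAZ cDNA alone. WWTR1, the gene for TAZ, was at 9.57 ± 0.16 and 9.44 ± 0.047, so the transfected cDNAs were not visible at these probe sets in that group. With both cDNAs YAP1 was at 10.88 ± 0.089 and WWTR1 at 9.99 ± 0.08. WWTR1 was also at 10.01 ± 0.033 with shLATS1B and 9.80 ± 0.08 with shLATS1+2, groups given no YAP/TAZ cDNA. LATS1 was at 9.33 ± 0.09 with both cDNAs. At 1 of its probe sets, ESR1 was at 5.52 ± 0.14 in control, 6.47 ± 0.1 with ESR1 cDNA, 6.03 ± 0.079 with both cDNAs, 6.37 ± 0.11 with shLATS1B and 6.40 ± 0.055 with shLATS1+2, so that the knockdown groups, given no ESR1 cDNA, were above the both-cDNA group. Of the epithelial markers, KRT5 (group means between 12.27 and 12.69) and EPCAM (10.31 to 11.33) were bright in every group. KRT19 was between 5.62 and 5.72 and GATA3 between 7.15 and 7.44. ELF3 was between 6.40 and 6.57 in the control, YAP/TAZ and ESR1 groups and between 8.39 and 8.88 in the others. The other ESR1 probe set was in the dimmest 30%. All remaining epithelial markers were at 7.85 or above. All 4 adipocyte genes and the defining leukocyte genes PTPRC and CD3E were in the dimmest 30% of probe sets, while the monocyte gene CD14 was at 9.05 in control and 11.06 with both cDNAs. Of 11 luminal probe sets 7 were higher and 1 lower, and of 5 basal ones 4 were lower (KRT14 at 10.43 in control against 8.15, 7.85 and 8.06), with both cDNAs, shLATS1B and shLATS1+2 alike. Their part in the results was not tested, and in bulk RNA fewer cells of a kind and less RNA per cell cannot be told apart.

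Promoter windows from RefSeq (GRCh38.p14), from 250 bases before to 50 bases after a gene's start, were found for 74 of the 89 genes (90 windows). The NRF1 motif GCGCATGC stood in 17.8% of member windows and in 3.05% of all 35116 windows. The ETS/GABP motif CCGGAAG stood in 24.4% against 10.3%, the YY1 motif AAGATGGC in 13.3% against 2.89%, and the estrogen-related receptor motif TCAAGGTCA in 1.11% against 0.353%. Both strands were searched, no motif holds another, and a match is a description of letters, not a binding site. Of the member windows 44.4% held at least 1 of the 4 motifs, against 15.3% of all windows.

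The 150 bases before the start are shown for 6 of the 7 members that passed the test in the same direction in shLATS1B, shLATS1+2 and both-cDNA cells (NDUFAF3 has several starts and is left out). The share of all probe sets that passed in this way was not counted, and these comparisons share their control arrays. Capitals mark a motif on either strand, and each sequence runs 5′ to 3′ on the strand of the gene.
COX6B1, chr19:35648173-35648322, plus strand: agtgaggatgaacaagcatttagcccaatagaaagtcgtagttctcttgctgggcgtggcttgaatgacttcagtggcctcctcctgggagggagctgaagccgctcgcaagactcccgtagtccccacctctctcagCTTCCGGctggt
NDUFA3, chr19:54102705-54102854, plus strand: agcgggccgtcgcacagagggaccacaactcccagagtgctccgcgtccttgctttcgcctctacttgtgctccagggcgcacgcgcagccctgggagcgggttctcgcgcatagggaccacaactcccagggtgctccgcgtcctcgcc
NDUFA7, chr19:8321376-8321525, minus strand: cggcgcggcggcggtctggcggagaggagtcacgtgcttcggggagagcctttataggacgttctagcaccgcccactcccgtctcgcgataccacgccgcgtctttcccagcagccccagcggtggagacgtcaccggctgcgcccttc
NDUFS6, chr5:1801257-1801406, plus strand: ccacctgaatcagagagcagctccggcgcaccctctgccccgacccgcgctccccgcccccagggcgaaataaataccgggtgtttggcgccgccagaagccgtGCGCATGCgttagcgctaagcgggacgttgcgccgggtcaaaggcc
NDUFS7, chr19:1383757-1383906, plus strand: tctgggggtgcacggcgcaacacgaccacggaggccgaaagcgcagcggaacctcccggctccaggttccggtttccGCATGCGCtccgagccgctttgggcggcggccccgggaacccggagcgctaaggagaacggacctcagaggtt
NDUFAF1, chr15:41402497-41402646, minus strand: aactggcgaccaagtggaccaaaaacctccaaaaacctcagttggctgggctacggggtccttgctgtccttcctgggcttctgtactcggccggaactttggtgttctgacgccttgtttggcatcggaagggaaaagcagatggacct
An NRF1 motif began at position -46 of NDUFS6 and -73 of NDUFS7, and an ETS/GABP motif at -12 of COX6B1. NDUFA3, NDUFA7 and NDUFS7 held a YY1 motif after the start, at positions 22, 15 and 18. NDUFAF1, the member of the 6 that fell, held none of the 4 in its window. NDUFAF3, which rose, held none of them either in any of its 4 windows.

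Members were bright on these arrays. Their median mean log2 intensity was 9.72 against 6.35 for all single-symbol probe sets, and 85 of 96 lay above that median. The 6 members in the dimmest 30% were COX6B2, COX7A1, COX7B2, COX8C, ATP5MGL and 1 of 2 NDUFS4 probe sets (8105318). Differences were tested in 1 limma model of all 18 arrays with Benjamini-Hochberg adjustment over the 19158 probe sets, and a member is said to have risen or fallen where its adjusted p was under 0.05. In at least 1 of 7 comparisons 49 members did so, and 47 did so in none. The same count was not made over all probe sets, so it shows nothing particular to the members. All comparisons with control share its 3 arrays.

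Before any comparison, single arrays stood apart in the level of the whole chain. The median deviation of the 82 subunit probe sets from their 18-array means was 0.22 in shLATS1+2 array 3, 0.17 in ESR1 array 3 and 0.13 in ESR1 array 2. It was -0.16 and -0.12 in both-cDNA arrays 2 and 3 and -0.15 in control array 1. Their own group mates lay closer to 0, at -0.06 for ESR1 array 1, -0.01 for both-cDNA array 1, 0.00 and -0.01 for control arrays 2 and 3, and 0.04 and 0.05 for shLATS1+2 arrays 1 and 2. So the arrays of a group disagreed by as much as the groups did. Over all tested probe sets the same medians were between -0.02 and 0.01. The first principal component of the members held 73.2% of their variance and set ESR1 arrays 2 and 3 and shLATS1+2 array 3 (-2.54, -3.18 and -2.83) apart from the other 15 arrays (-0.65 to 2.36). The second held 11.8% and was negative in all 9 control, YAP/TAZ and ESR1 arrays and positive in all 9 knockdown and both-cDNA arrays. Among the other tested probe sets the first component (46.5%) split the same 9 arrays from the same 9. Their second component (19%) was at -21.3, -23 and -18.2 in ESR1 arrays 2 and 3 and shLATS1+2 array 3. It lay between -5.11 and 22.3 in the remaining arrays. Neither axis was therefore particular to the members.

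**Figure D1:**
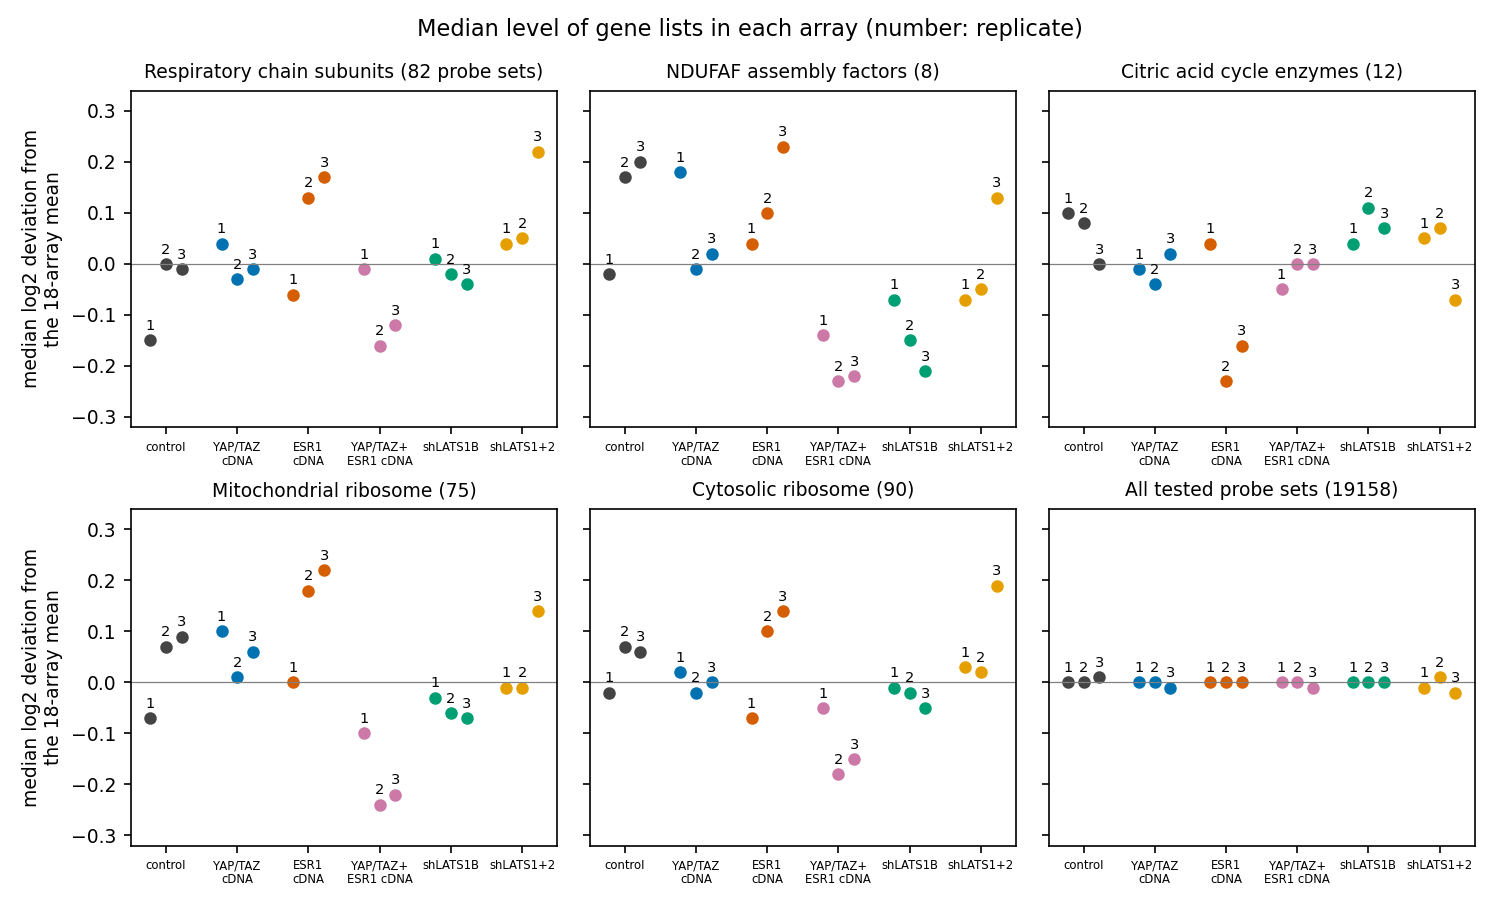
Median log2 deviation from the 18-array mean in each array (vertical axis) by group (horizontal axis), for the subunits, the NDUFAF assembly factors and 4 other gene lists, with each point labelled by its replicate number. Subunits and both kinds of ribosomal protein were higher in ESR1 arrays 2 and 3 and shLATS1+2 array 3 than in their group mates and low in both-cDNA arrays 2 and 3, while the citric acid cycle enzymes were low in ESR1 arrays 2 and 3.

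The pattern was counted over single members, a description made after the arrays had been seen. In 45 of 96 members (46.9%) ESR1 arrays 2 and 3 and shLATS1+2 array 3 all lay above the other 15 arrays, and in 2 (SDHA and NDUFV1) all lay below. Over all 19158 probe sets these shares were 4.27% and 4.72%. The 45 comprised 18 probe sets of complex I, 4 of complex II, 5 of complex III, 6 of complex IV and 12 of complex V, counted with assembly factors and pseudogenes. Both-cDNA arrays 2 and 3 lay below the other 16 arrays in 27.1% of members, against 6.24% of all probe sets. Control array 1 was the lowest of the 18 in 22.9%, against 6.83%.

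COX7B, a small complex IV subunit, had log2 intensities of 8.36, 9.38 and 9.17 in control, 8.75, 9.71 and 9.90 with ESR1 cDNA, 8.89, 8.04 and 8.13 with both cDNAs, and 8.83, 8.57 and 9.79 with shLATS1+2. Its values within 1 group thus spanned more than the difference between most groups, and it passed the test in no comparison (adjusted p of 0.12 or more). NDUFB6, a membrane-arm subunit of complex I, was at 7.85, 8.53 and 8.75 with ESR1 cDNA and at 8.05, 8.12 and 8.80 with shLATS1+2. ATP5ME, subunit e of ATP synthase, was at 9.32, 9.89 and 10.01 and at 9.33, 9.43 and 9.90 in those groups. In each, array 1 of the ESR1 group and arrays 1 and 2 of the shLATS1+2 group stayed near the control arrays. SDHA, the flavoprotein of complex II, went the other way, at 10.77, 10.33 and 10.32 with ESR1 cDNA and 10.68, 10.67 and 10.42 with shLATS1+2, against 10.84, 10.76 and 10.65 in control. NDUFV1, the NADH-binding core subunit of complex I, was at 10.34, 9.80 and 9.90 with ESR1 cDNA, and ATP5F1D, the delta subunit of the F1 head, at 10.78, 10.45 and 10.45 (both chosen after their values were seen). The labels name no batch to set beside this pattern, and the median within-group SD of the members was 0.176 in the ESR1 group against 0.0541 in the shLATS1B group.

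**Figure D2:**
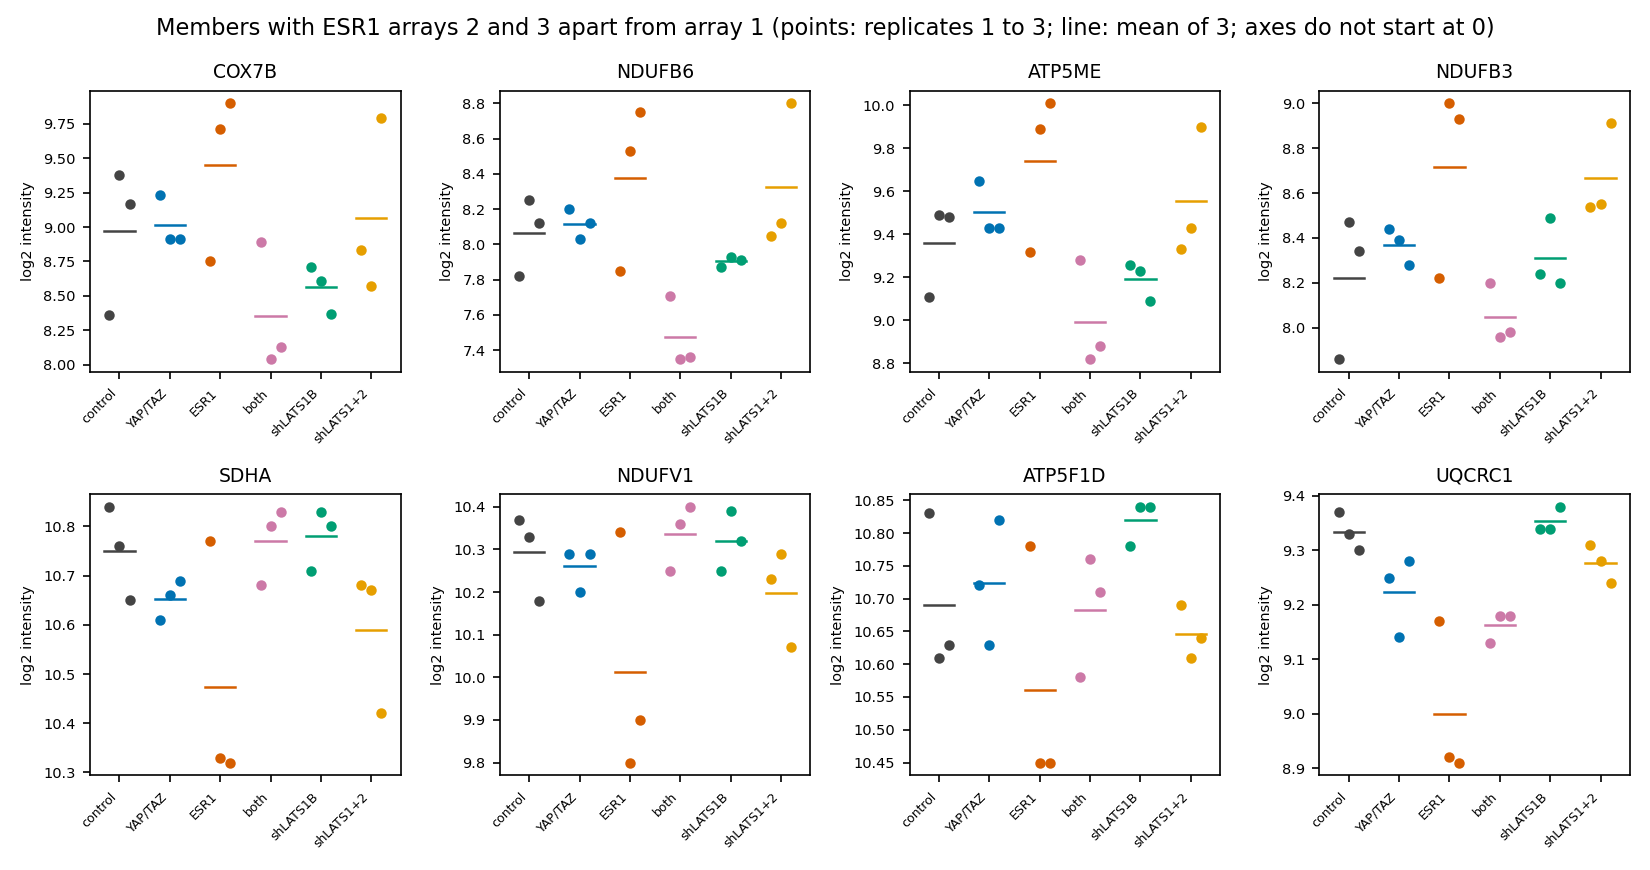
Log2 intensity (vertical axes, not starting at 0) in each array of the 6 groups (horizontal axes) for 8 members, with points for replicates 1 to 3 from left to right and a line at their mean. In the upper row ESR1 arrays 2 and 3 and shLATS1+2 array 3 lie above their group mates, as in COX7B at 9.71, 9.90 and 9.79, and in the lower row ESR1 arrays 2 and 3 lie below array 1.

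With shLATS1B, NDUFAF3 and NDUFA7 showed the largest rises among the members and NDUFAF1 the largest fall. Of 96 members 13 rose and 4 fell, where 12.1% and 11.3% of all probe sets did (23.4% in all). Among 82 subunit probe sets 11 rose and none fell (54 lay above 0 and 28 below), with a median difference of 0.02, and among 8 NDUFAF probe sets 1 rose and 4 fell, with a median of -0.27. With shLATS1+2, 22 members rose and 1 fell, against 11.5% and 12.7% of all probe sets, and 20 of the 82 subunit probe sets rose and none fell (73 above 0 and 9 below, median 0.17). Of 5244 probe sets of like brightness (mean between 8.01 and 10.9), 18.2% rose and 22.8% fell with shLATS1B, and 17.1% and 26.2% with shLATS1+2. The share of members that rose with shLATS1B, and that of complex I subunit probe sets (8 of 36), were near the backgrounds. Without control array 1, ESR1 array 1 and shLATS1+2 array 3 together, 14 rose and 14 fell with shLATS1B and 15 rose and 7 fell with shLATS1+2.

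By complex, the rises with shLATS1B were 8 of 36 complex I, 0 of 5 complex II, 0 of 7 complex III, 2 of 17 complex IV and 1 of 17 complex V probe sets of subunits. For shLATS1+2 the counts were 12, 0, 1, 4 and 3. A total of 12 members rose with both hairpins: NDUFA3, NDUFA7, NDUFS6, NDUFS7, NDUFB10, NDUFB11, NDUFV3 and NDUFAF3 of complex I, COX6B1 and COX8A of complex IV, and ATP5MC2 and ATP5IF1 of complex V. Their arrays did not overlap with the control arrays in either comparison. The same held for all 13 members that rose with shLATS1B and all 22 with shLATS1+2, so it adds nothing to the calls. The share without overlap over all probe sets was not counted, and neither was the share that rose with both hairpins.

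**Figure D3:**
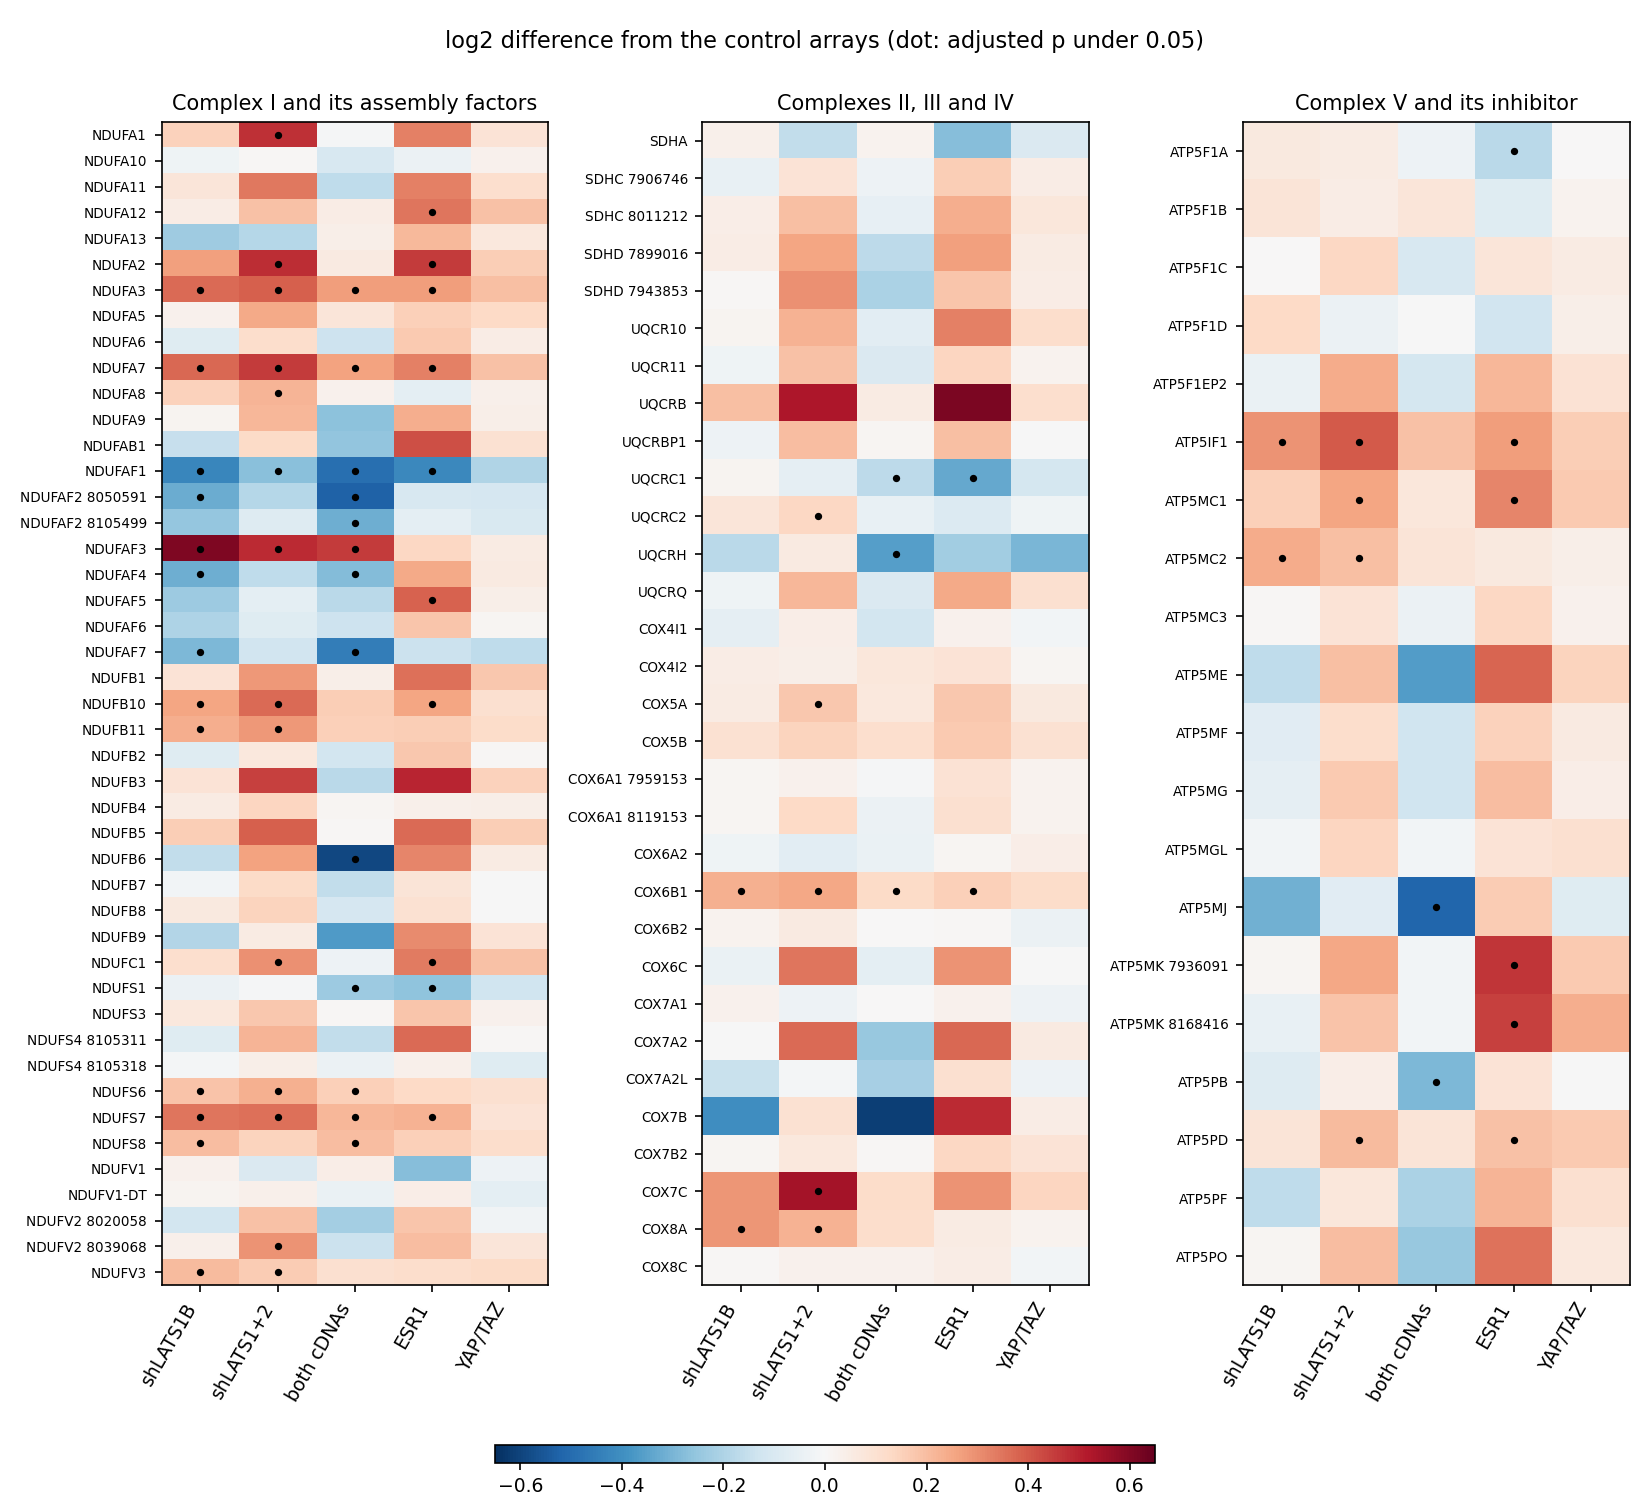
Log2 difference of each member (rows, grouped by complex) from the control arrays in 5 comparisons (columns), coloured red for higher and blue for lower, with a dot where limma's adjusted p was under 0.05. NDUFA3, NDUFA7, NDUFS7 and COX6B1 are marked in every column but YAP/TAZ, which holds no dot.

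NDUFA3, a supernumerary subunit of the membrane arm of complex I, was at 10.61, 10.65 and 10.70 in control, 10.99 to 11.06 with shLATS1B and 11.02, 10.98 and 11.12 with shLATS1+2. Every knockdown array was above every control array. The rise was 1.29-fold with shLATS1B (log2 difference 0.37 ± 0.0613 SE, limma adjusted p = 0.00026) and 1.31-fold with shLATS1+2 (0.39 ± 0.0613, adjusted p = 0.00016). NDUFA7, another supernumerary subunit, was at 9.99, 10.03 and 10.16 in control and between 10.41 and 10.67 in the 6 knockdown arrays, a rise of 1.3-fold and 1.37-fold (adjusted p = 0.0023 and 0.00048).

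NDUFS7 is a core subunit that holds an iron-sulfur cluster at the ubiquinone site. It was at 8.26, 8.15 and 8.19 in control, 8.61, 8.54 and 8.49 with shLATS1B and 8.54, 8.51 and 8.63 with shLATS1+2, or 1.27-fold and 1.28-fold higher (adjusted p = 6.4e-05 and 4.6e-05). NDUFS6, a zinc-binding accessory subunit, was at 8.05, 8.03 and 8.02 in control and at 8.22, 8.22 and 8.23 with shLATS1B, 1.14-fold higher with non-overlapping arrays (adjusted p = 0.009), and 1.17-fold higher with shLATS1+2 (adjusted p = 0.0019). NDUFB10, of the membrane arm, rose 1.19-fold and 1.29-fold (adjusted p = 0.0058 and 0.00028). NDUFA3, NDUFA7, NDUFS7 and COX6B1 all lie on chromosome 19, on which 11 member probe sets were measured, and these 4 rose and none fell there in each of the shLATS1B, shLATS1+2, ESR1 and both-cDNA comparisons. This chromosome was singled out after the values were seen. Of 85 member probe sets on other chromosomes, 9, 18, 10 and 3 rose and 4, 1, 4 and 11 fell in those comparisons, in that order. Over all probe sets 12.1%, 11.5%, 6.9% and 14.4% rose.

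NDUFA1 and NDUFA2 passed the test with shLATS1+2 at 1.39-fold and 1.4-fold (adjusted p = 0.013 and 0.019). Both calls rested on single arrays. Without control array 1 the adjusted p was 0.072 for NDUFA1 and 0.1 for NDUFA2, and without shLATS1+2 array 3 it was 0.075 and 0.11.

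NDUFAF3, which joins early complex I intermediates, showed the largest rise of any member with shLATS1B. It was at 9.72, 9.56 and 9.61 in control, 10.19, 10.28 and 10.24 with shLATS1B, 10.15, 10.17 and 10.03 with shLATS1+2, and 10.03, 10.10 and 10.13 with both cDNAs. The 9 arrays of those 3 groups all lay above the 9 others, where YAP/TAZ and ESR1 arrays reached 9.70 and 9.79. The rise was 1.52-fold with shLATS1B (log2 difference 0.61 ± 0.0499 SE, limma adjusted p = 1.3e-07), 1.4-fold with shLATS1+2 (0.49, adjusted p = 1.6e-06) and 1.37-fold with both cDNAs (0.45, adjusted p = 2.4e-06).

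NDUFAF1, a factor of the membrane-arm assembly complex, ran opposite. It was at 8.11, 8.37 and 8.14 in control, 7.75, 7.81 and 7.81 with shLATS1B, 7.67, 7.80 and 7.69 with both cDNAs and 8.01, 7.53 and 7.83 with ESR1 cDNA. It fell 1.34-fold, 1.4-fold and 1.34-fold in those comparisons (log2 difference -0.42, -0.49 and -0.42, SE 0.0951, adjusted p = 0.0033, 0.00076 and 0.0054). With shLATS1+2 the fall was 1.21-fold (adjusted p = 0.047), and that call was lost without control array 2 or 3, YAP/TAZ array 1 or 3, ESR1 array 3, or any array of the both-cDNA, shLATS1B or shLATS1+2 groups (adjusted p from 0.052 to 0.21).

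NDUFAF2, a late assembly factor, was at 6.47, 6.72 and 6.74 in control and at 6.26, 6.14 and 5.95 with both cDNAs at probe set 8050591, 1.44-fold lower (adjusted p = 0.00022). NDUFAF7, another assembly factor, was at 7.88, 8.15 and 8.09 in control and at 7.73, 7.55 and 7.50 with both cDNAs, 1.36-fold lower (adjusted p = 0.0017). For both genes all 3 both-cDNA arrays were below all 3 control arrays. With shLATS1B, NDUFAF2 (at probe set 8050591), NDUFAF4 and NDUFAF7 fell 1.25-fold, 1.25-fold and 1.22-fold (adjusted p = 0.014, 0.033 and 0.035). Each of the 3 was over the threshold without control array 2 (0.064, 0.11 and 0.15) or control array 3 (0.07, 0.13 and 0.11). The other NDUFAF2 probe set, 8105499, had means of 6.18 in control and 5.94 with shLATS1B and did not pass the test there. The 4 falls among the assembly factors with shLATS1B became 1 without control array 2 or 3 and 2 without shLATS1B array 2 or 3. The 5 falls with both cDNAs, against 1 rise, became 3 without control array 2 or 3 or both-cDNA array 2 or 3. Without the 3 arrays named above together, 7 and 6 of the 8 probe sets fell. Of 10 further probe sets for complex I assembly genes outside the NDUFAF names, 1 rose and none fell with shLATS1B (median -0.02), none rose and 1 fell with shLATS1+2, 2 rose and 3 fell with ESR1 cDNA, and none rose and 4 fell with both cDNAs. Over all probe sets, 12.1%, 11.5%, 6.9% and 14.4% rose and 11.3%, 12.7%, 11.6% and 14.5% fell in those 4 comparisons, in that order. In probe sets of like brightness 18.2%, 17.1%, 9.88% and 20.8% rose and 22.8%, 26.2%, 25.6% and 29.6% fell. The small counts of these 10 probe sets moved with single arrays. The rise with shLATS1B was lost without control array 2 or 3 or shLATS1B array 1 or 2, and became 2 without ESR1 array 2 or 3 or shLATS1B array 3. The fall with shLATS1+2 was lost without its array 3 and became 2 without ESR1 array 1. With ESR1 cDNA no rise was left without control array 1 or ESR1 array 2 or 3, 1 was left without most other arrays, and 5 fell without ESR1 array 1. The 4 falls with both cDNAs became 2 without control array 2 or 3, YAP/TAZ array 3, both-cDNA array 2 or 3 or any shLATS1B array.

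**Figure D4:**
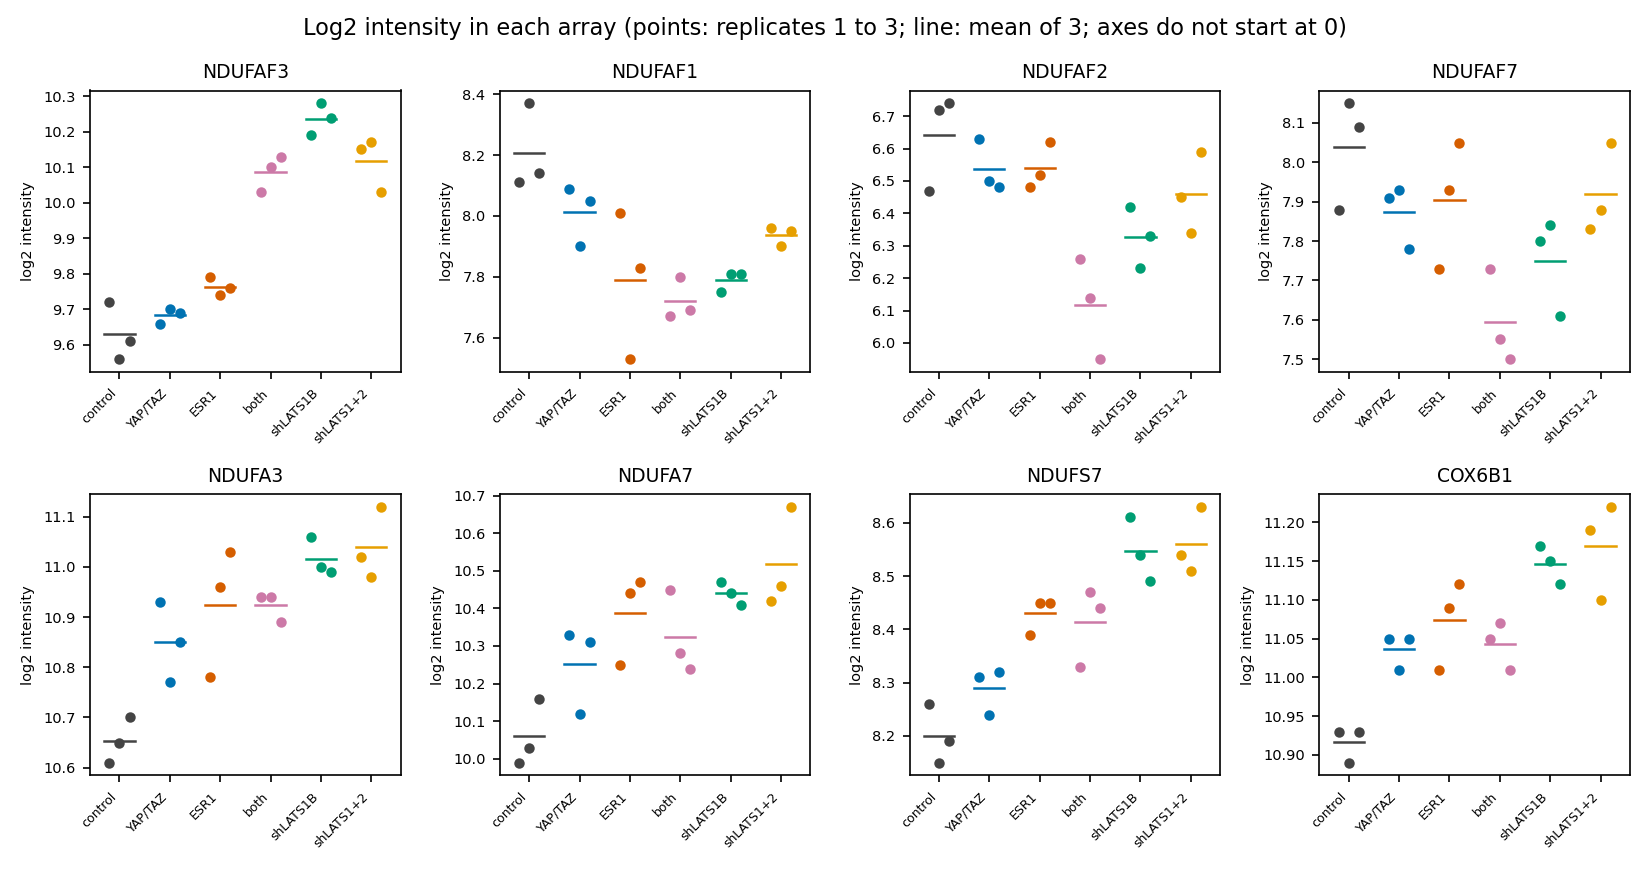
Log2 intensity (vertical axes, not starting at 0) in each array of the 6 groups (horizontal axes) for 4 assembly factors (upper row) and 4 chromosome 19 subunits (lower row), with points for replicates 1 to 3 and a line at their mean. NDUFAF3 lies at 10.03 or above in both knockdowns and both-cDNA arrays and at 9.79 or below elsewhere, whereas NDUFAF1, NDUFAF2 and NDUFAF7 have their highest mean in control.

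In complex IV, COX6B1, a subunit facing the intermembrane space, was at 10.93, 10.89 and 10.93 in control, 11.17, 11.15 and 11.12 with shLATS1B and 11.19, 11.10 and 11.22 with shLATS1+2. Control arrays lay below all others, and the rises were 1.17-fold and 1.19-fold (adjusted p = 0.00057 and 0.00025). COX7C was at 9.30, 9.56 and 9.55 in control and 9.95, 9.86 and 10.21 with shLATS1+2, a rise of 1.45-fold (0.54 ± 0.104, adjusted p = 0.00097), the largest fold among the members that rose in that comparison. COX8A, at 11.51, 11.30 and 11.40 in control and 11.75, 11.69 and 11.62 with shLATS1B, rose 1.22-fold (adjusted p = 0.0014). It rose 1.17-fold with shLATS1+2 (adjusted p = 0.0089, and 0.055 without control array 2).

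In complex V, the 3 genes for the c-ring subunit of ATP synthase encode the same mature protein and were measured apart. ATP5MC2 was at 8.91, 8.91 and 8.97 in control, 9.24, 9.17 and 9.10 with shLATS1B and 9.16, 9.12 and 9.09 with shLATS1+2, rising 1.18-fold and 1.15-fold (adjusted p = 0.0014 and 0.0071). ATP5MC1 rose 1.19-fold with shLATS1+2 (adjusted p = 0.0034) and not past the threshold with shLATS1B (log2 difference 0.16, adjusted p = 0.065). ATP5MC3 passed in no comparison. ATP5IF1, which blocks ATP hydrolysis by the enzyme, was at 7.34, 7.34 and 7.56 in control and between 7.69 and 7.92 in the 6 knockdown arrays, 1.22-fold and 1.32-fold higher (adjusted p = 0.0067 and 0.00056).

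Complex II and complex III held 1 call between them in the knockdowns. None of the 5 SDHA, SDHC and SDHD probe sets passed the test in any comparison with control. SDHA differed by 0.03 (adjusted p = 0.89) with shLATS1B and by -0.16 (adjusted p = 0.32) with shLATS1+2. UQCRC2 of complex III, at 11.74, 11.80 and 11.80 in control and 11.94, 11.91 and 11.89 with shLATS1+2, was 1.1-fold higher (adjusted p = 0.0099) and is the 1 complex III member that rose there. UQCRB, a subunit near the ubiquinone site, had the largest complex III difference with shLATS1+2 (0.53, adjusted p = 0.11) on arrays of 6.78, 6.72 and 7.47, with array 3 above the others.

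No member passed the test between the hairpins, for which limma called 0.298% of all probe sets, 0.13% higher with shLATS1+2 than with shLATS1B and 0.167% lower. At an unadjusted p under 0.05 there were 10 members, or 10.4% against 11.4% of all probe sets. The median difference was 0.14, with 82 of 96 members above 0, and shLATS1+2 array 3 stood above its 2 mates in the subunit median.

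YAP/TAZ cDNA without ESR1 cDNA moved no member past the threshold, where 6.73% of all probe sets did with limma, 3.02% rising and 3.71% falling. Unadjusted p was under 0.05 for 9 members above and 2 below control, or 11.5% against 17% of all probe sets, and the lowest adjusted p was 0.074. The median difference was 0.05, with 72 of 96 above 0. UQCRH, the hinge protein of complex III, had the largest difference of its complex, at 6.57, 6.52 and 6.42 against 6.66, 6.94 and 6.81 (difference -0.30, adjusted p = 0.2). NDUFAF1 had the largest difference in complex I (-0.20, adjusted p = 0.31), at 8.09, 7.90 and 8.05, with no array above the lowest control array of 8.11. When ESR1 array 1 was left out, 1 member rose.

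With ESR1 cDNA 14 members rose and 4 fell, where 6.9% of all probe sets rose and 11.6% fell. In probe sets of like brightness 9.88% rose and 25.6% fell. Of 75 probe sets of mitochondrial ribosomal proteins 13 rose and 5 fell, and of 90 for cytosolic ribosomal proteins 3 rose and 5 fell. The member rises comprised 7 of 36 complex I, 0 of 5 complex II, 0 of 7 complex III, 1 of 17 complex IV and 4 of 17 complex V subunit probe sets, NDUFAF5 and ATP5IF1. Of the 14 rises, 12 had no overlap with control, which adds nothing to the calls, as the share over all probe sets was not counted. The 4 that fell were NDUFS1, UQCRC1, ATP5F1A and NDUFAF1. Of 7 probe sets of complex I core subunits 1 rose and 1 fell.

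The number of rises rested on single arrays. It was 54 without ESR1 array 1, 6 and 5 without ESR1 array 2 or 3, and 8 without control array 1. The falls numbered 8 without ESR1 array 1. Without control array 1, ESR1 array 1 and shLATS1+2 array 3 together, 48 rose and 7 fell. These 3 arrays were picked after the members' own levels had been seen, so the counts without them add nothing to the calls. No fit left out ESR1 arrays 2 and 3 together. With control and ESR1 arrays alone in the fit 1 rose and 1 fell.

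**Figure D5:**
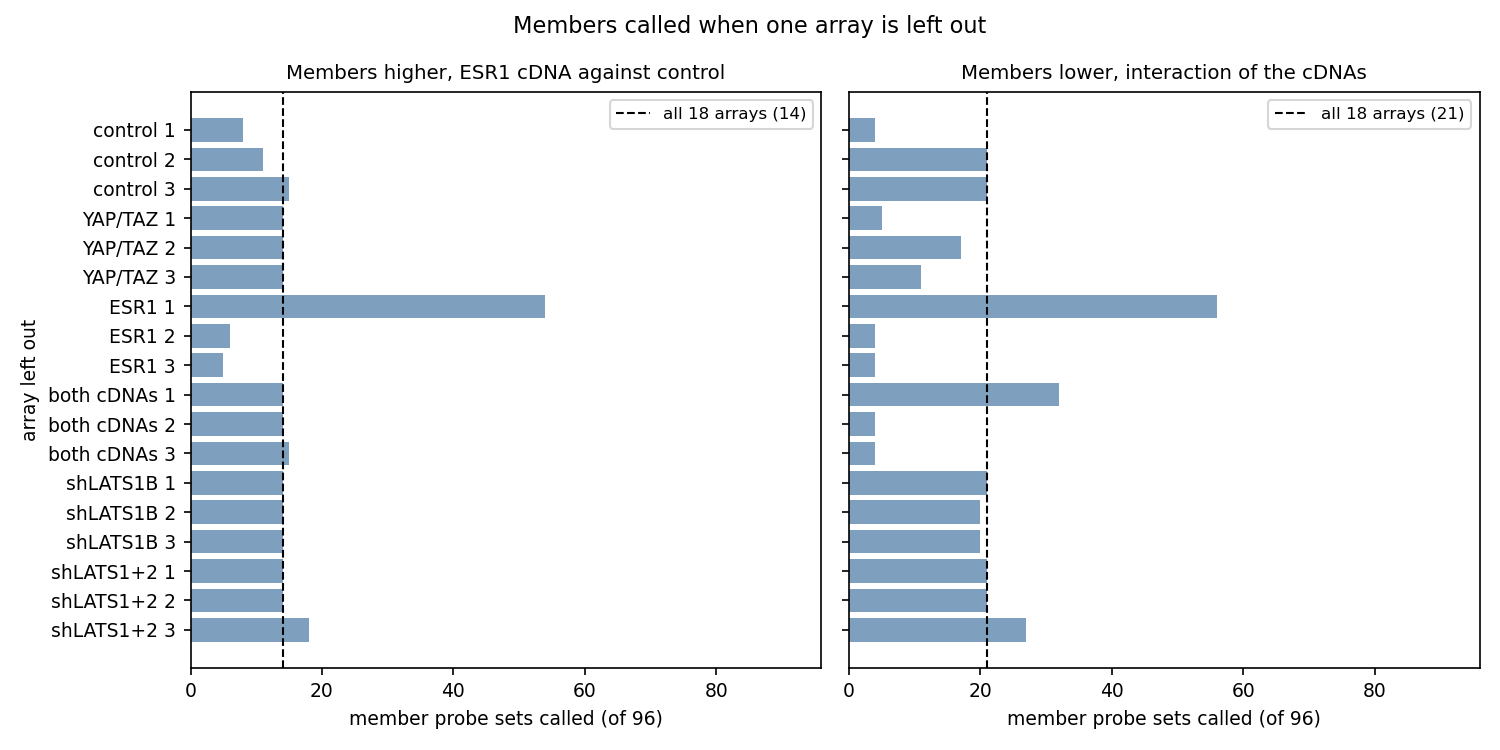
Number of member probe sets of 96 (horizontal axes) that rose with ESR1 cDNA (left) or were lower in the interaction of the cDNAs (right) when the array named on the vertical axis was left out, with a dashed line at the count from all 18 arrays. The counts range from 5 to 54 against 14, and from 4 to 56 against 21.

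NDUFS1, the largest iron-sulfur core subunit of complex I, was at 9.95 or above in the 3 control arrays, 9.80, 9.67 and 9.68 with ESR1 cDNA and 9.81, 9.69 and 9.73 with both cDNAs. Its ESR1 arrays were all below control, a fall of 1.2-fold (log2 difference -0.26 ± 0.0467 SE, limma adjusted p = 0.00083), which held under each of 26 other processing settings. With both cDNAs it fell 1.18-fold (adjusted p = 0.00097). UQCRC1, a large matrix-side protein of complex III, was at 9.37, 9.33 and 9.30 in control and 9.17, 8.92 and 8.91 with ESR1 cDNA, a fall of 1.26-fold (adjusted p = 0.00089). ATP5F1A, the alpha subunit of the F1 head, fell 1.13-fold (adjusted p = 0.021), and 0.098, 0.066 and 0.13 without control array 2, control array 3 or ESR1 array 3.

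ATP5MC1 was at 12.66, 12.75 and 12.77 in control and 12.94, 13.08 and 13.10 with ESR1 cDNA. It rose 1.24-fold with no overlap (0.32 ± 0.0578, adjusted p = 0.0011) and, with NDUFS1, is 1 of the 2 of 18 calls in this comparison that held under all of them. NDUFA12, a supernumerary subunit, was at 10.46, 10.57 and 10.64 in control and 10.69, 10.98 and 11.04 with ESR1 cDNA, 1.27-fold higher (adjusted p = 0.0074). Among the members that rose, the largest fold was that of ATP5MK, a small membrane subunit of ATP synthase, at 1.38-fold and 1.36-fold for its probe sets 7936091 and 8168416 (adjusted p = 0.033 and 0.035). Neither was under the threshold without control array 1 (0.15 for both), ESR1 array 2 (0.15 and 0.16) or ESR1 array 3 (0.15 and 0.16), and probe set 8168416 also not without control array 3 (0.061).

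With both cDNAs 7 members rose and 11 fell, where 14.4% of all probe sets rose and 14.5% fell. In probe sets of like brightness 20.8% rose and 29.6% fell. The rises were the 6 members shared with both knockdowns and NDUFS8, a core iron-sulfur subunit, at 10.21, 10.16 and 10.16 in control and 10.34, 10.43 and 10.36 with both cDNAs (1.15-fold, adjusted p = 0.015). NDUFA3 was at 10.94, 10.94 and 10.89 (1.21-fold, adjusted p = 0.0026) and NDUFS7 at 8.33, 8.47 and 8.44 (1.16-fold, adjusted p = 0.0036), all above control. COX6B1 rose 1.09-fold (adjusted p = 0.037), a call lost without any 1 of the control arrays (0.055 to 0.12) or without both-cDNA array 1 or 2 (0.083 and 0.13). NDUFA7 (1.2-fold, adjusted p = 0.022) was over the threshold without control array 1 or 2 or both-cDNA array 1 (0.072 to 0.11). NDUFS6 (1.11-fold, adjusted p = 0.025) was over it without control array 2 or 3 or both-cDNA array 3 (0.062 to 0.15). Without control array 2 the rises were 3 in all, and NDUFS8 had an adjusted p of 0.051 there and of 0.072 without both-cDNA array 2.

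The 11 falls with both cDNAs were 5 NDUFAF probe sets and 6 subunits, NDUFB6, NDUFS1, UQCRC1, UQCRH, ATP5PB and ATP5MJ. NDUFB6 was at 7.82, 8.25 and 8.12 in control and 7.71, 7.35 and 7.36 with both cDNAs, 1.51-fold lower (adjusted p = 0.041). ATP5MJ, a small membrane subunit of ATP synthase, was at 9.45, 9.59 and 9.63 against 9.30, 8.93 and 8.89, 1.43-fold lower (adjusted p = 0.014). ATP5PB, subunit b of its stalk, was at 8.17, 8.26 and 8.38 against 8.13, 7.92 and 7.88, 1.23-fold lower (adjusted p = 0.013). In all 3, both-cDNA array 1 lay nearer to control than arrays 2 and 3. ATP5MJ and ATP5PB were over the threshold without control array 3 (0.052 and 0.07) or both-cDNA array 2 (0.062 and 0.055) or 3 (0.067 for both). UQCRH was over it without control array 2 or 3 or both-cDNA array 1 or 3 (0.057 to 0.17). NDUFB6 was over it without control array 2 or 3, both-cDNA array 2 or 3, or any array of the YAP/TAZ or shLATS1B groups (0.051 to 0.15). The falls numbered 6 without control array 2, 4 without control array 3, 5 without both-cDNA array 2 and 4 without array 3, and 29 without control array 1, ESR1 array 1 and shLATS1+2 array 3 together.

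The interaction compares the effect of YAP/TAZ cDNA in cells given ESR1 cDNA with its effect in cells without it (the former minus the latter). It was lower for 21 members and higher for 2, where 7.61% and 11.2% of all probe sets were. In probe sets of like brightness 13.6% were lower and 20.9% higher. Of 75 probe sets of mitochondrial ribosomal proteins 38 were lower and 1 higher (median -0.37). Of the 82 subunit probe sets 19 were lower and 1 higher (median -0.24). Of 90 for cytosolic ribosomal proteins 8 were lower and none higher. The lower members comprised 8 of 36 complex I, 1 of 5 complex II, 1 of 7 complex III, 1 of 17 complex IV and 8 of 17 complex V subunit probe sets, with 2 assembly factors. All 4 stalk subunits of ATP synthase were among them and none of the 4 F1 subunits. The 21 became 4 without control array 1, ESR1 array 2 or 3, or both-cDNA array 2 or 3, 5 without YAP/TAZ array 1, 11 without YAP/TAZ array 3, 32 without both-cDNA array 1 and 56 without ESR1 array 1. The 2 higher ones became 1 without control array 1 or 2, YAP/TAZ array 2, ESR1 array 2 or 3 or both-cDNA array 2 or 3, and 6 without ESR1 array 1. NDUFA12, ATP5MC1, NDUFC1, NDUFAF4 and NDUFAF3 kept their calls under each of the 26 other settings. ATP5MC1 was at 12.96, 12.85 and 12.89 with YAP/TAZ cDNA, 12.94, 13.08 and 13.10 with ESR1 cDNA, and 12.90, 12.72 and 12.78 with both, for an interaction of -0.42 ± 0.0817 SE (adjusted p = 0.0019). NDUFAF3, higher in both-cDNA cells than in either single-cDNA group, had an interaction of 0.27 ± 0.0706 (adjusted p = 0.014).

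Complex IV also has isoforms that are restricted to other tissues. COX6B2, COX7A1, COX7B2 and COX8C had group means between 4.54 and 4.89, in the dim range, COX4I2 had arrays between 5.41 and 5.69, and COX6A2 between 5.85 and 6.09. None of these 6 isoforms passed the test against control, while among 11 probe sets of the general isoforms 4 rose with shLATS1+2. The 1 call was COX7B2 in the interaction (-0.22, adjusted p = 0.036) on arrays between 4.68 and 4.90.

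Genes around the chain, from lists of the pathway, gave the following counts. They stand beside 11.6% of all probe sets and 25.6% of those of like brightness that fell with ESR1 cDNA, 14.5% and 29.6% with both cDNAs, and 11.3% and 22.8% with shLATS1B. Of 18 probe sets of mitochondrial biogenesis regulators none rose and 9 fell with both cDNAs, led by TFB1M, a ribosomal RNA methyltransferase of mitochondria (1.84-fold, adjusted p = 0.00022), and TFB2M, a mitochondrial transcription factor (1.46-fold, adjusted p = 0.00062). With shLATS1B 3 fell, TFB2M (1.34-fold, adjusted p = 0.0063) and the mitochondrial RNA polymerase POLRMT (1.25-fold, adjusted p = 0.015) among them. POLRMT was over the threshold without control array 1 or shLATS1B array 1 or 3 (0.072, 0.078 and 0.057). The 3 falls became 1 without shLATS1B array 1, 7 without control array 1 and 6 without ESR1 array 1. With ESR1 cDNA 5 fell, GABPA at 1.39-fold and GABPB1 at 1.27-fold (adjusted p = 0.0054 and 0.0034), which became 3 without control array 2 and 2 without ESR1 array 3. Of 12 citric acid cycle probe sets none rose and 5 fell with ESR1 cDNA, led by IDH2 (1.48-fold, adjusted p = 0.0084, and 0.052 without ESR1 array 3) and DLST (1.33-fold, adjusted p = 0.0033). The 5 became 3 without control array 1 or 2 or ESR1 array 2 and 1 without ESR1 array 3.

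The list of complex II to V assembly factors also holds ATP5IF1, which is a member and no assembly factor. Among its 29 probe sets, 4 rose and 9 fell with both cDNAs. UQCC1 was 1.29-fold up and BCS1L, which inserts the Rieske protein into complex III, 1.42-fold down (adjusted p = 6.5e-05 and 2.1e-05). The 9 became 4 without control array 2 and 5 without control array 3 or both-cDNA array 2 or 3. With shLATS1B 4 rose, ATP5IF1 among them, and 3 fell (median -0.04). The largest differences were those of COX15 and SURF1, both needed to build complex IV, which rose 1.33-fold and 1.31-fold (adjusted p = 0.00015 and 0.0061). Of 75 probe sets of mitochondrial ribosomal proteins 1 rose and 37 fell with both cDNAs (median -0.22), with 24 falls without control array 3 or both-cDNA array 2. Cytosolic ribosomal proteins, a list added after the data had been seen, had 2 rises and 33 falls among 90 in that comparison, with 21 falls without both-cDNA array 3. The subunits had 6 of each there. Cytochrome c (CYCS), the carrier between complexes III and IV, rose 1.25-fold with ESR1 cDNA (adjusted p = 0.034), a call lost without control array 1 or 3 or ESR1 array 2 or 3 (0.077 to 0.18).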

How the data were processed

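RNA of 18 arrays was analysed from the deposited table, which holds log2 values made by the authors for 32321 probe sets. Of tools, the processing notes by the submitters list affy, an R package, without a version. How background was corrected and probes were normalized and summarised is "not given in the sources used here". Medians of the arrays ran from 5.494 to 5.619, and no scaling was added. Gene names came from the platform's annotation table (19158 with 1 symbol, 1388 with several, 11775 with none) and 19128 were matched by gene identifier to RefSeq. A linear model with a mean per group was fitted to the 19158 probe sets in R 4.3.3 with limma 3.58.1 (lmFit, contrasts.fit, eBayes), with 12 residual degrees of freedom and two-sided tests. Each fold was taken from the size of its log2 difference. The fit was tested on simulated data.

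Members and lists were chosen with earlier results of these data known. Members were named if they belong to complex II, a paralog family or the c-ring, to the 8 largest rises or falls of a comparison, have the largest difference of their complex, or passed the test the same way in both knockdowns and with both cDNAs. Up to 2 called genes of each list were named, and others were chosen after their values were seen. Alternatives were a replicate block, array medians, quantile normalization, all probe sets, 1 probe set per gene, no dim probe sets, an intensity trend, only the compared groups, and each array left out in turn, 26 settings in all. Leaving out 3 arrays together and centring on the members were added after seeing the data.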

Additional observations from a re-analysis of the deposited data

Results flagged for a closer look

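The effect of adding YAP/TAZ cDNA differed between cells with and without ESR1 cDNA, by limma's interaction term over all 19158 probe sets, for 13 of the probe sets named by rule. The difference of log2 changes was higher for NDUFAF3 (0.27) and UQCRC1 (0.28). It was lower for 3 complex I subunits of the membrane arm, NDUFB6 (-0.96), NDUFB3 (-0.82) and NDUFB9 (-0.76), and for the acyl carrier protein NDUFAB1 (-0.77). In complex V it was lower for ATP5ME (-0.89), ATP5MK (-0.66 at probe set 7936091 and -0.70 at 8168416), ATP5PO (-0.67) and ATP5MC1 (-0.42). SDHD (-0.49 at probe set 7899016) and the dim COX7B2 (-0.22) completed the set. For NDUFAF3 and ATP5MC1 the calls held without any 1 array, and for the other 11 probe sets they did not.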

How the results depend on the processing

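Among the calls, 13 of 17 held under each of the 26 other settings with shLATS1B, 12 of 23 with shLATS1+2, 2 of 18 with ESR1 cDNA, 7 of 18 with both cDNAs and 5 of 23 in the interaction. Replicate numbers did not pair the arrays: deviations of same-numbered arrays correlated between -0.683 and 0.616 (median -0.0782), and 4 of 18 arrays were closest to their own number. With a replicate block the falls with shLATS1+2 went from 1 to 0, and no other count moved by over 1.5 times. With all probe sets tested, 2 members fell with shLATS1B, 0 with shLATS1+2 and 6 with both cDNAs. Quantile normalization gave 2 falls with shLATS1+2, 3 rises with YAP/TAZ cDNA and 22 rises with ESR1 cDNA. An intensity trend gave 0 falls with shLATS1+2 and 1 higher member in the interaction. With only the compared groups in the fit, ESR1 cDNA had 1 rise and 1 fall, and the interaction 1 higher member.

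Without control array 1, ESR1 array 1 and shLATS1+2 array 3 together, falls numbered 14 with shLATS1B, 7 with shLATS1+2, 1 with YAP/TAZ cDNA, 7 with ESR1 cDNA, 29 with both cDNAs and 57 in the interaction, and rises numbered 48 with ESR1 cDNA, 1 with YAP/TAZ cDNA and 6 in the interaction. Centring each array on the median of the members takes out, by construction, what the members share. It left 3 rises with shLATS1B, 1 with shLATS1+2, 2 with ESR1 cDNA and 4 with both cDNAs, and gave 10 falls with shLATS1+2, 4 with both cDNAs and 4 in the interaction. Under it ATP5MC2 (-0.0377), COX8A (-0.0088), NDUFS6 (-0.0032), COX5A (-0.0607), UQCRC2 (-0.1001), ATP5PD (-0.0291), NDUFV3 (-0.0672) and NDUFA8 (-0.0104) changed sign with shLATS1+2. COX7B2 (0.0876) and ATP5PD (0.0287) did so in the interaction.

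Leaving out 1 array at a time gave 12 to 16 rises and 1 to 5 falls with shLATS1B, 16 to 31 and 0 to 2 with shLATS1+2, 0 to 1 and 0 with YAP/TAZ cDNA, 5 to 54 and 3 to 8 with ESR1 cDNA, 3 to 9 and 4 to 14 with both cDNAs, and 1 to 6 higher and 4 to 56 lower members in the interaction. The cause of these shifts was not tested. Dim probe sets, such as those of COX8C and COX7A1, have little room below them for a fall.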
